A study of Homo sapiens with 8 samples.

Results

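The mitotic G2/M genes are 50 genes whose products drive cells from G2 through mitosis and cytokinesis, among them the kinase CDK1, the B-type cyclins, the spindle checkpoint, the kinetochore, the mitotic motors and the condensins. They were taken as a list of gene symbols, with no threshold on a measured value but with earlier results of these data known. All 50 were found by symbol among the 15982 genes of the count table. RNA-seq of total RNA, depleted of ribosomal RNA, compared 143BTK- cells transfected with a mimic of the microRNA hsa-miR-101-3p (4 libraries) with the same cells transfected with a commercial negative control mimic (4 libraries). 143BTK- is a human osteosarcoma line without thymidine kinase, used here as 1 line of cells. Both groups grew without glucose, in medium with 10 mM galactose, 5% dialysed serum, GlutaMAX and uridine. Both received 80 pmol of mimic at the start and again at 48 h and were harvested at 120 h. Per the labels the 4 replicates of each group came from separate transfection experiments. The comparison gives the difference in mRNA levels between cells with the miR-101 mimic and cells with the control mimic. All fold changes below are miR-101 over negative control.

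Mitotic genes are transcribed in a wave late in the cell cycle. In quiescent and G1 cells the DREAM complex holds many of them off through a promoter element called the cell cycle genes homology region (CHR), and in S and G2 the MuvB core of that complex, together with B-MYB and FOXM1, switches them on, helped by NF-Y at CCAAT boxes. Cyclin B with CDK1 then starts mitosis, the spindle checkpoint holds the anaphase-promoting complex in check until every chromosome is attached, and CDC20 releases it. The mRNAs of these genes are therefore markers of proliferating cells, and in a bulk sample fewer cells in mitosis and less mRNA per cell cannot be told apart. A microRNA acts mainly through its seed, bases 2 to 8, which pairs with sites in the 3′ UTR of mRNAs and lowers their level or translation.

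The mature sequence of the transfected microRNA is shown with its seed in capitals, since the matches below follow from it (RefSeq, GRCh38.p14, chromosome 9, positions 4850345 to 4850365, plus strand).
hsa-miR-101-3p: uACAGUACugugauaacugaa
A match to the whole seed followed by A is an 8mer, a match to the whole seed alone a 7mer-m8, and a match to bases 2 to 7 followed by A a 7mer-A1. Of the 50 mitotic genes, 8 held at least 1 such match in their longest annotated 3′ UTR (16.0%), against 2954 of the 12432 tested genes with an annotated 3′ UTR (23.8%). The median length of that UTR was 787 bases over the mitotic genes and 1455 bases over all these genes. KIF11 was the 1 mitotic gene with an 8mer (2.0%, against 4.59% of all genes). INCENP, MAD2L1, DLGAP5 and LMNB1 had a 7mer-m8 (8.0%, against 8.16%), and CCNB1, CKS2 and KIF14 a 7mer-A1 as their strongest match (6.0%, against 11%). The 8mer and 7mer-m8 sites of the mitotic genes are shown with the match in capitals, and below them the 8mer of EZH2, a described target of miR-101 outside the mitotic genes.
KIF11: gatataaggcaGTACTGTAaattcagttga
LMNB1: ttaataactgtGTACTGTtcggaaggggt
MAD2L1: aatggatatttGTACTGTttaatgttctg
INCENP: gcaggacgaagGTACTGTtccatcacctg
DLGAP5: gaataaaaaatGTACTGTgccttgcctct
EZH2: gaatttgcaaaGTACTGTAagaataattta
The letters are those of GENCODE 29 transcripts, and the matches lie at chr10:92654205-92654212 (KIF11, plus strand), chr5:126836495-126836501 (LMNB1, plus), chr4:120059536-120059542 (MAD2L1, minus), chr11:62152415-62152421 (INCENP, plus), chr14:55148136-55148142 (DLGAP5, minus) and chr7:148807525-148807532 (EZH2, minus) of GRCh38. A match is a description of the sequence, and whether it is used was not measured.

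Total counts ran from 17603054 to 20160267 reads per library, and a mitotic gene had between 224 and 28906 reads in a library. In this and later sentences the 4 values of a group are those of replicates 1, 2, 3 and 4 in that order, in CPM, the read count relative to the library's total, scaled with TMM factors. EZH2, the methyltransferase of Polycomb complex 2, stood at 25.9, 26.7, 30.3 and 29.3 CPM with miR-101, against 46.0, 46.7, 51.3 and 38.9 CPM in the control. All 4 miR-101 libraries lay below all 4 control libraries (log2 fold change -0.70 ± 0.114 (SE), edgeR adjusted p = 0.00561), the direction described for this target. Of the mesenchymal markers, VIM ran from 476 to 806 CPM with miR-101 and from 526 to 899.5 CPM in the control, and the 5 tested of 7 such markers summed to between 1540.3 and 2589 CPM with miR-101 and between 1687 and 2083 CPM in the control, with RUNX2 called higher (log2 fold change 0.93 ± 0.212, edgeR adjusted p = 0.0269). COL1A1 (1.10 ± 0.311, edgeR adjusted p = 0.0619) and SPARC (0.74 ± 0.478, 0.395) were not called but were higher in all 4 same-numbered pairs, and with the replicate number as a block both were called higher with RUNX2 (edgeR adjusted p = 0.00467, 0.00977 and 0.0233). VIM and CD44 had log2 fold changes of -0.20 and -0.17 and were called in neither fit. The 2 tested epithelial markers of 4, EPCAM and KRT18, summed to between 273 and 482 CPM with miR-101 and between 239 and 301 CPM in the control, were not called (log2 fold changes 0.72 and 0.51, edgeR adjusted p = 0.137 and 0.12). With the block EPCAM was called higher (edgeR adjusted p = 0.0115) and KRT18 was not (0.081), and the part of either marker list in the results was not tested. Replicates 1 and 2 of each group lay closest together: the mean chi-square between them over genes was 4.07 with miR-101 and 5.08 in the control, where sampling noise alone gives 1, against 15.6 to 77.3 for every other pair of libraries within a group. They differed by more than sampling noise, which does not by itself show separate cultures, and are counted as separate samples as the labels give them. Of the 50 mitotic genes, 20 have exons that overlap those of another annotated gene, 15 have a named pseudogene, and 29 have either. Since the sources used here do not say how reads were counted or whether by strand, the values of such genes may hold reads of the other gene.

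With the miR-101 mimic the mitotic program as a whole stood close to its control level. KIF11, the kinesin that pushes spindle poles apart, LMNB1, a lamin of the nuclear envelope, and FAM64A (now PIMREG), a regulator of the metaphase to anaphase transition, fell by 0.49, 0.45 and 0.38 on the log2 scale, and the other 47 genes were not called in either direction (quasi-likelihood test of edgeR, adjusted p under 0.05). That is 3 of 50 genes called (6.0%), against 6.62% of all 15905 tested genes, and 3 called lower against 3.32% of all genes. By edgeR none was called higher, against 3.3% of all genes. DESeq2, which called 10.7% of all genes, and limma-voom, which called 6.66%, called the same 3 mitotic genes and none higher. At an unadjusted p under 0.05, edgeR had 7 mitotic genes, 3 higher and 4 lower (14%), against 22.3% of all genes. The groups of libraries did not overlap for 3 of the 50 genes (6.0%), against 15.1% of all genes.

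The log2 fold changes of the 50 genes ran from -0.51 (MAD2L1) to 0.43 (CENPA), with a median of 0.0030, 26 above 0 and 24 below. The median over all tested genes was -0.0051. In all, 49 of the 50 mitotic genes (98.0%) lay within 0.5 of 0 on the log2 scale, against 83.3% of all tested genes. The share was 95.8% for the 118 other mitotic genes and 97.1% for the 34 G1/S genes described below, so it was not particular to the 50. The standard errors ran from 0.0921 to 0.276, and their median was 0.136 against 0.171 over all genes. The 95% interval of every one of the 50 genes, taken gene by gene, stayed inside a 2-fold change in either direction, and for 38 of them it stayed inside a 1.5-fold change. In the same-numbered pairs of libraries, 26, 27, 26 and 27 of the 50 genes were higher with miR-101, and the median log2 ratios were 0.014, 0.073, 0.011 and 0.012.

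**Figure D1:**
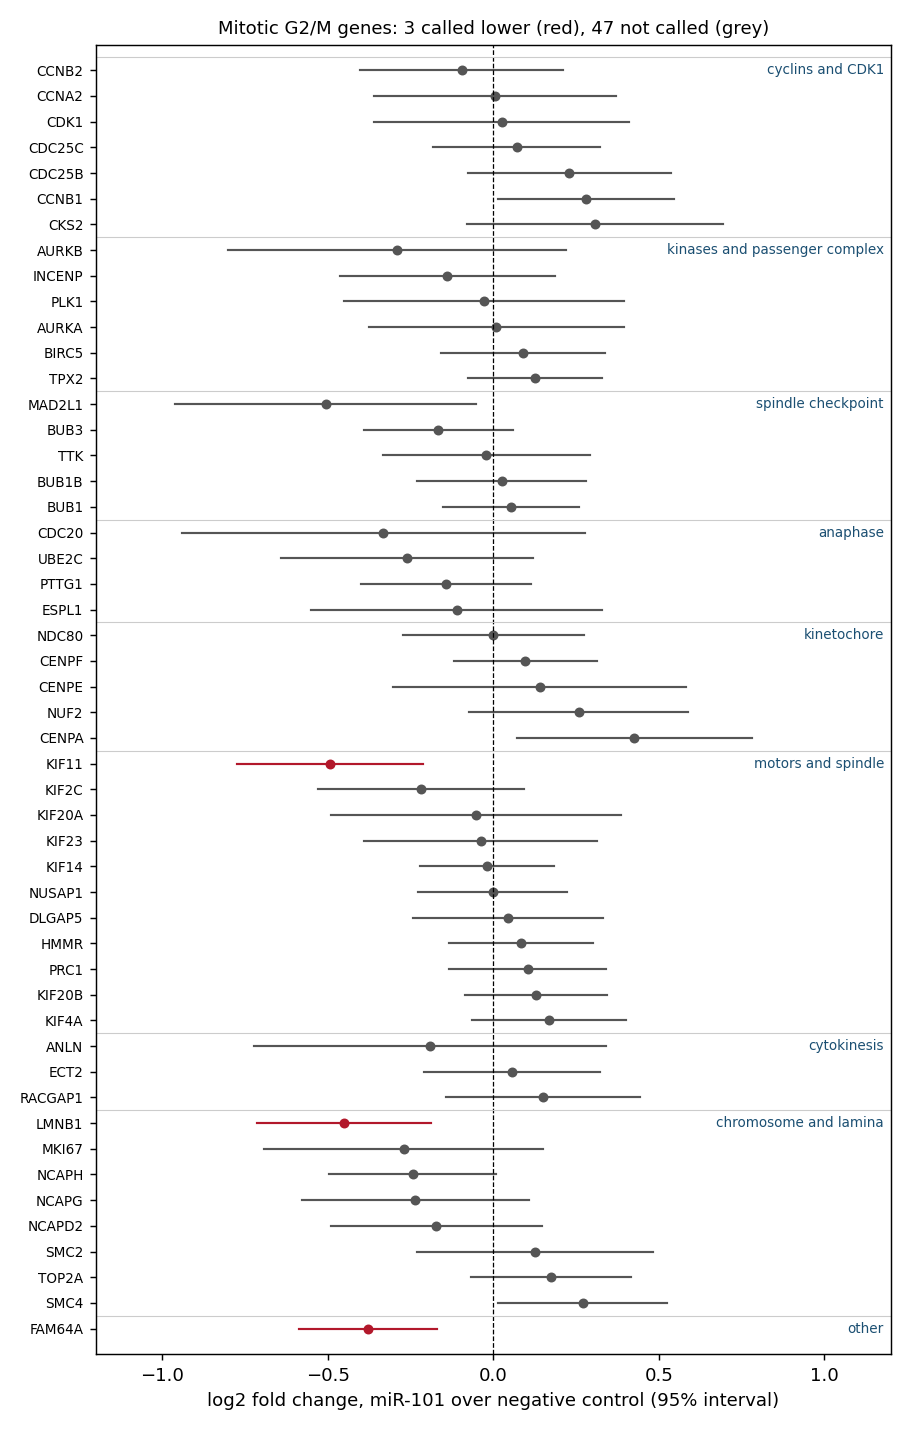
Log2 fold change of each of the 50 mitotic genes (points) with its 95% interval (lines), miR-101 over negative control, grouped by role and sorted within a role. Red marks KIF11, LMNB1 and FAM64A, called lower by edgeR at an adjusted p under 0.05, and the 47 grey genes were not called.

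**Figure D2:**
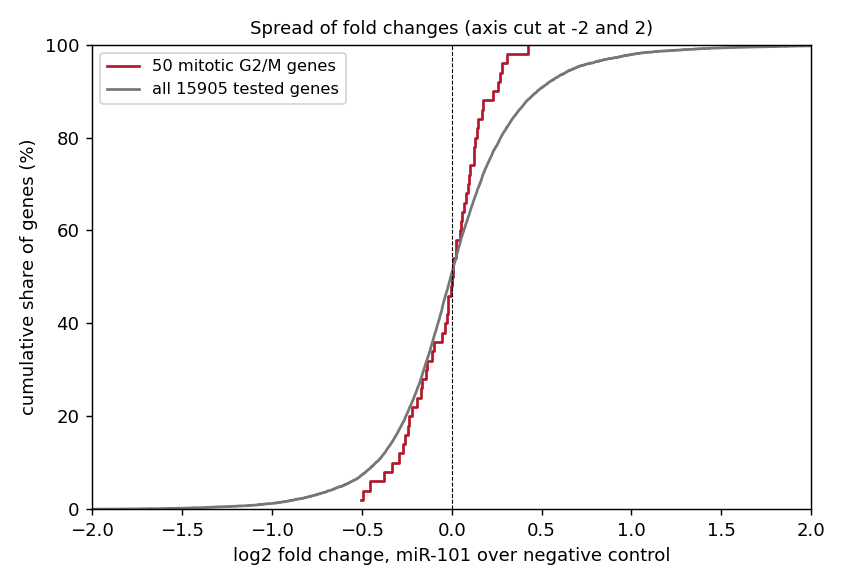
Cumulative share of genes (%) against log2 fold change for the 50 mitotic genes (red) and all 15905 tested genes (grey), with the axis ending at -2 and 2. The medians are 0.0030 and -0.0051, and the red curve is the steeper, with 98.0% against 83.3% of genes within 0.5 of 0.

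KIF11 (GRCh38 chr10:92593286-92655395) is the kinesin-5 that slides antiparallel microtubules so that the spindle becomes bipolar. It stood at 141, 138, 171 and 191 CPM with miR-101, against 208, 207, 241 and 245 CPM in the control. Each miR-101 library lay below each control library, and replicates 3 and 4 were higher than 1 and 2 in both groups. The means were 160.0 ± 25.4 CPM after miR-101 and 225 ± 20.8 CPM after the negative control (SD over 4 libraries each). This 1.41-fold lower level was a log2 fold change of -0.49 ± 0.128 (edgeR adjusted p = 0.0438). KIF11 is the gene whose 8mer is shown above, and the median over the 571 tested genes with an 8mer as strongest match was -0.26.

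LMNB1 (GRCh38 chr5:126776623-126837020) encodes lamin B1, a filament protein under the inner nuclear membrane that is taken apart at mitotic entry. Its level was 86.7, 85.2, 109.5 and 109.6 CPM with miR-101, against 126, 127, 132 and 150.1 CPM in the control. The groups did not overlap, and in the miR-101 group replicates 1 and 2 were the low ones. The means were 97.8 ± 13.6 CPM after miR-101 and 134 ± 11.3 CPM after the negative control (SD over 4 libraries each), with a log2 fold change of -0.45 ± 0.119 (edgeR adjusted p = 0.0473), a 1.37-fold lower level. LMNB1 holds 1 7mer-m8, shown above, and the median over the 1015 tested genes of that class was -0.096.

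FAM64A (GRCh38 chr17:6444415-6451469, annotated as PIMREG) had 29.8, 32.2, 32.2 and 32.5 CPM with miR-101, against 40.05, 41.6, 38.6 and 44.5 CPM in the control. The miR-101 values lay in a narrow band under all control values, with means of 31.7 ± 1.27 CPM after miR-101 and 41.2 ± 2.5 CPM after the negative control (SD over 4 libraries each), and a log2 fold change of -0.38 ± 0.0949 (edgeR adjusted p = 0.039), a 1.30-fold lower level. Without composition factors its call was lost (edgeR adjusted p = 0.0782). No seed match was found in its longest 3′ UTR. Its exons overlap those of PITPNM3 on the other strand, and 4 pseudogenes carry its name, so that reads of these genes may be mixed with its own and its value is uncertain.

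The 3 calls lay near the threshold. KIF11 kept its call in 1 of the 8 fits lacking 1 library each (that without miR-101 replicate 4), LMNB1 in the same 1, and FAM64A in 2 (without control replicate 3 or 4). In the fits that lost it, the edgeR adjusted p was between 0.0619 and 0.139 for KIF11, 0.0562 and 0.15 for LMNB1, and 0.0598 and 0.131 for FAM64A, with log2 fold changes of -0.59 to -0.43, -0.52 to -0.39 and -0.41 to -0.34 over all 8. With the counts of replicates 1 and 2 summed, edgeR called no mitotic gene, against 1.09% of all genes. In that summed fit 3 mitotic genes had an unadjusted p under 0.05. The test also called none in the 5 fits lacking replicate 1, 2 or 3 of miR-101 or replicate 1 or 2 of the control. Those 5 fits each called between 3.06% and 4.3% of all genes, and between 4 and 5 mitotic genes had an unadjusted p under 0.05. The share of all genes at that unadjusted p was not taken for these 5 fits or for the summed one. Without control replicate 3, FAM64A alone of the mitotic genes was called, against 8.02% of all genes.

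**Figure D3:**
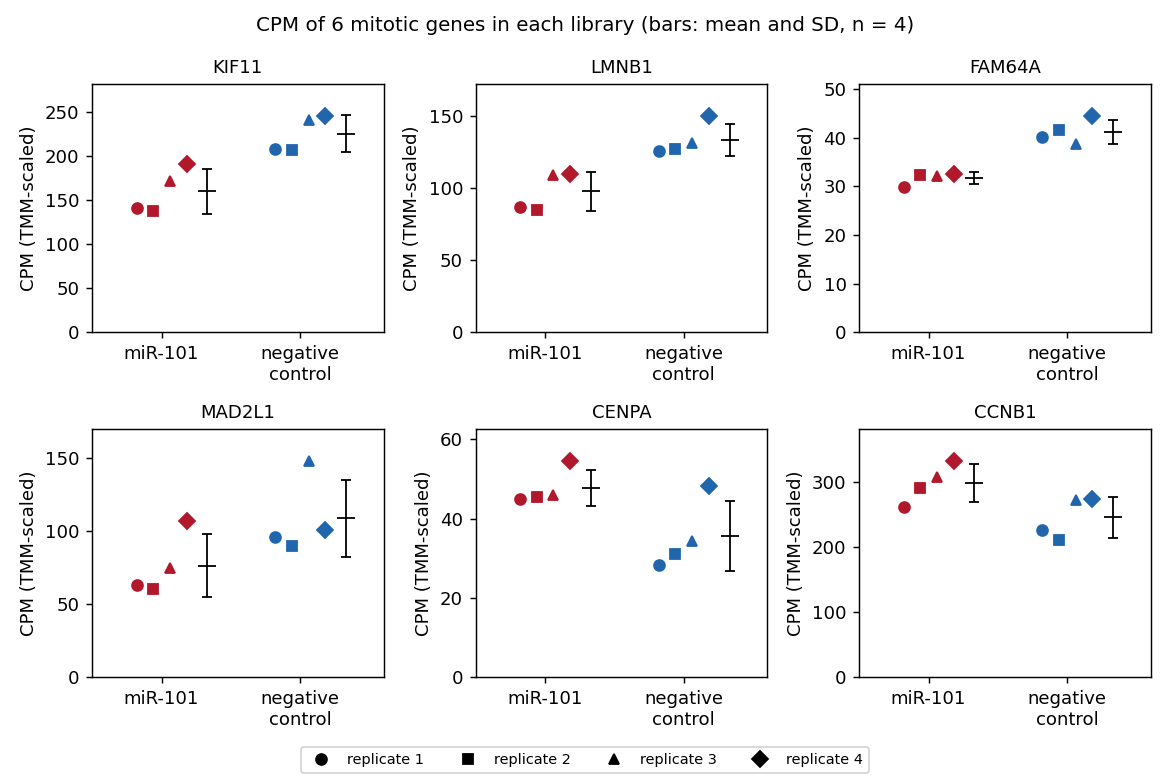
CPM of KIF11, LMNB1, FAM64A, MAD2L1, CENPA and CCNB1 in each library, miR-101 in red on the left and negative control in blue on the right of each panel, with a symbol for each replicate number and the mean and SD (n = 4) as black bars. The groups do not overlap for KIF11, LMNB1 and FAM64A and overlap for the other 3 genes.

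Cyclins, CDK1 and its activators were not called in any of 7 genes (median log2 fold change 0.071, 6 above 0 and 1 below). CDK1, the kinase that starts mitosis, stood at 291, 283, 311 and 451 CPM with miR-101, against 303, 285, 421 and 304 CPM in the control. The highest value of each group, in miR-101 replicate 4 and control replicate 3, lay far above the other 3, and the control range lay inside the miR-101 range (log2 fold change 0.026 ± 0.175, 95% interval -0.36 to 0.41). CCNB1, cyclin B1, which activates CDK1 at mitotic entry, had 262, 291, 308 and 332 CPM with miR-101, against 227, 210.2, 272 and 273 CPM in the control. Its values were higher with miR-101 in all 4 same-numbered pairs, but the groups overlapped and it was not called (log2 fold change 0.28 ± 0.12, edgeR adjusted p = 0.201). CKS2, a small subunit that tethers CDK1 to its substrates, was at 76.6, 77.6, 65.9 and 115 CPM with miR-101, against 62.6, 55.4, 78.3 and 74.3 CPM in the control. Its miR-101 replicate 4 was the highest of the 8 libraries, and it was not called (log2 fold change 0.31 ± 0.176, edgeR adjusted p = 0.337). CDC25B, a phosphatase that removes the inhibitory phosphates of CDK1, was measured at 26.3, 23.1, 21.9 and 17.9 CPM with miR-101, against 20.3, 19.6, 16.4 and 19.8 CPM in the control, and its log2 fold change was 0.23 ± 0.139 (edgeR adjusted p = 0.364). The phosphatase CDC25C and the cyclins CCNB2 and CCNA2 had log2 fold changes of 0.071, -0.096 and 0.0058.

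Mitotic kinases and the chromosomal passenger complex gave no call in 6 genes (median log2 fold change -0.0094). PLK1, the kinase that matures centrosomes and spindle poles, stood at 18.7, 15.7, 17.3 and 19.7 CPM with miR-101, against 18.1, 12.3, 17.4 and 24.9 CPM in the control. Its lowest and its highest value were both control libraries (log2 fold change -0.028 ± 0.191, 95% interval -0.45 to 0.39). TPX2, which activates AURKA on spindle microtubules, was at 179, 181, 193 and 189.8 CPM with miR-101, against 179, 153, 169 and 179.6 CPM in the control. It was higher with miR-101 in all 4 pairs by a small amount and was not called (log2 fold change 0.13 ± 0.0924, edgeR adjusted p = 0.458). AURKB, the kinase of the passenger complex, which corrects wrong attachments of chromosomes, had 32.5, 33.2, 51.7 and 48.9 CPM with miR-101, against 41.7, 38.4, 47.2 and 76.1 CPM in the control. Replicates 1 and 2 with miR-101 were its lowest libraries and control replicate 4 its highest (log2 fold change -0.29 ± 0.232, edgeR adjusted p = 0.495). INCENP, the scaffold of that complex, with 1 7mer-m8 and 1 7mer-A1 match, stood at 27.2, 25.3, 24.7 and 25.6 CPM with miR-101, against 26.5, 30.2, 21.2 and 35.1 CPM in the control, and was not called (log2 fold change -0.14 ± 0.147, edgeR adjusted p = 0.624). BIRC5 (survivin), another subunit, and the kinase AURKA had log2 fold changes of 0.089 and 0.009.

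None of the 5 spindle checkpoint genes was called, although the lowest log2 fold change of the 50 genes was among them. MAD2L1, which binds and sequesters CDC20 at unattached kinetochores, stood at 63.4, 60.4, 75.2 and 107 CPM with miR-101, against 96.4, 89.9, 148 and 101.1 CPM in the control. Replicates 1, 2 and 3 with miR-101 lay below every control library, while miR-101 replicate 4 lay above 3 of them. The log2 fold change was -0.51 ± 0.206 (95% interval -0.96 to -0.052), with an edgeR adjusted p of 0.176. Without miR-101 replicate 4 it was called (log2 fold change -0.72, edgeR adjusted p = 0.0486). Its 7mer-m8 is shown above. An antisense gene overlaps its exons and a pseudogene carries its name, which makes the value uncertain. BUB3, a subunit of the checkpoint complex, was at 295, 289, 308 and 357 CPM with miR-101, against 346, 325, 375 and 355 CPM in the control, with overlapping groups (log2 fold change -0.17 ± 0.102, edgeR adjusted p = 0.371). BUB1, the checkpoint kinase that BUB3 brings to kinetochores, had 216, 221, 227 and 216 CPM with miR-101, against 224, 224, 188 and 212 CPM in the control, and the groups overlapped (log2 fold change 0.053 ± 0.0934, edgeR adjusted p = 0.786). The kinase TTK and the checkpoint protein BUB1B had log2 fold changes of -0.021 and 0.026.

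All 4 anaphase genes had a log2 fold change below 0, and none was called (median -0.20, lowest edgeR adjusted p = 0.408). Over the fits lacking 1 library each, the highest log2 fold change was 0.11 for CDC20 and 0.13 for ESPL1. It was -0.092 for UBE2C and -0.053 for PTTG1, which stayed below 0. UBE2C, the ubiquitin-conjugating enzyme of the anaphase-promoting complex, stood at 47.9, 46.98, 67.0 and 45.5 CPM with miR-101, against 58.8, 55.0, 51.9 and 82.7 CPM in the control. Its 2 highest libraries were miR-101 replicate 3 and control replicate 4 (log2 fold change -0.26 ± 0.173, edgeR adjusted p = 0.408). CDC20, the activator of the anaphase-promoting complex, had 63.5, 58.7, 67.0 and 56.0 CPM with miR-101, against 54.1, 64.2, 51.9 and 138 CPM in the control. Control replicate 4 stood at more than any of the other 7 libraries, which all lay between 51.9 and 67.0 CPM (log2 fold change -0.33 ± 0.276, 95% interval -0.94 to 0.28). PTTG1, the securin that is destroyed at anaphase, was at 109, 114, 125 and 129 CPM with miR-101, against 132, 116, 158 and 122 CPM in the control, and ESPL1, the separase it restrains, had a log2 fold change of -0.11 ± 0.2. PTTG1 was not called (log2 fold change -0.14 ± 0.116, edgeR adjusted p = 0.503).

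None of the 5 centromere and kinetochore genes had a log2 fold change below 0 (median 0.14), and none was called over the 8 libraries without a block. Over the fits lacking 1 library each, the lowest log2 fold change was -0.14 for NDC80 and -0.015 for CENPE. It was 0.33 for CENPA, 0.0995 for NUF2 and 0.040 for CENPF, which stayed above 0. CENPA, the histone H3 variant that marks centromeres, stood at 45.0, 45.5, 46.0 and 54.4 CPM with miR-101, against 28.3, 31.0, 34.4 and 48.2 CPM in the control. It was higher with miR-101 in all 4 pairs, but control replicate 4 lay above 3 of the miR-101 libraries. The log2 fold change was 0.43 ± 0.161 (edgeR adjusted p = 0.146), and with the replicate number as a block CENPA was called higher (log2 fold change 0.45, edgeR adjusted p = 0.035). That fit called 4 of the 50 genes, CENPA and the same 3 lower ones (8.0%), against 10.5% of all genes. CENPA was also called without control replicate 4 (log2 fold change 0.61, edgeR adjusted p = 0.00909), and its exons overlap those of SLC35F6 on the same strand. NUF2, a subunit of the NDC80 complex that grips microtubules, was at 89.8, 81.1, 84.2 and 123 CPM with miR-101, against 74.4, 70.6, 94.96 and 76.2 CPM in the control, and it was not called (log2 fold change 0.26 ± 0.15, edgeR adjusted p = 0.345). CENPF, a large kinetochore protein that accumulates in G2, had 529, 518, 532 and 495 CPM with miR-101, against 426, 488, 489.8 and 535 CPM in the control, with a log2 fold change of 0.097 ± 0.0982 (edgeR adjusted p = 0.606). The motor CENPE and NDC80 itself had log2 fold changes of 0.14 and 0.00021, and the 95% interval of NDC80 was -0.27 to 0.27.

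Among the 11 motors and spindle proteins KIF11 was the 1 call. KIF4A, a chromokinesin of the spindle midzone, stood at 119, 122, 108 and 109 CPM with miR-101, against 106, 107, 85.7 and 108 CPM in the control. Control replicate 3 was its lowest library, and it was not called (log2 fold change 0.17 ± 0.105, edgeR adjusted p = 0.38). KIF2C, the kinesin-13 that takes microtubules apart at kinetochores, was at 94.5, 104, 111 and 105 CPM with miR-101, against 105, 115, 103 and 159 CPM in the control, with control replicate 4 as the highest library (log2 fold change -0.22 ± 0.141, edgeR adjusted p = 0.393). The other kinesins KIF23, KIF20A, KIF20B and KIF14 had log2 fold changes of -0.039, -0.053, 0.13 and -0.020. The microtubule-binding proteins NUSAP1, PRC1, HMMR and DLGAP5 stood at -0.0025, 0.10, 0.083 and 0.045 on the same scale. DLGAP5 holds a 7mer-m8 and KIF14 a 7mer-A1 match, and their edgeR adjusted p were 0.878 and 0.928.

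The 3 cytokinesis genes were not called. ANLN, the anillin that links actin and septins at the cleavage furrow, had 454, 449, 475 and 734 CPM with miR-101, against 506, 395, 622 and 887 CPM in the control. The 2 highest values were those of replicate 4 in both groups, and the log2 fold change of -0.19 ± 0.241 had a 95% interval of -0.72 to 0.34. RACGAP1, the GTPase-activating subunit of centralspindlin, was at 132, 140.3, 167 and 176 CPM with miR-101, against 129, 118, 148 and 161 CPM in the control (log2 fold change 0.15 ± 0.133, edgeR adjusted p = 0.551). ECT2, the exchange factor that switches on RhoA at the cell equator, stood at 391, 367, 406 and 491 CPM with miR-101, against 381, 349, 435 and 428 CPM in the control (log2 fold change 0.056 ± 0.12, edgeR adjusted p = 0.831). In both genes the groups overlapped.

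Chromosome and nuclear structure held LMNB1 as its 1 call among 8 genes. TOP2A, the topoisomerase that untangles sister chromatids, stood at 1229.6, 1248, 1415 and 1514 CPM with miR-101, against 1128, 1129, 1194 and 1340.3 CPM in the control. It was higher with miR-101 in all 4 pairs by a little, the groups overlapped, and it was not called (log2 fold change 0.17 ± 0.109, 95% interval -0.066 to 0.42, edgeR adjusted p = 0.38). MKI67, the Ki-67 protein that coats mitotic chromosomes and is used to count proliferating cells, was at 84.1, 70.8, 84.6 and 72.6 CPM with miR-101, against 61.9, 82.0, 106 and 126 CPM in the control. The control libraries spread over a wider range than the miR-101 libraries and covered all of them (log2 fold change -0.27 ± 0.191, edgeR adjusted p = 0.438). The condensins, which compact chromosomes, had fold changes of both signs. SMC4, an ATPase core subunit of condensin, had 875, 829.9, 895 and 989 CPM with miR-101, against 664, 684, 882 and 747 CPM in the control (log2 fold change 0.27 ± 0.115, edgeR adjusted p = 0.198), and control replicate 3 lay within the range of the miR-101 libraries. NCAPH, the kleisin subunit of condensin I, was at 60.4, 66.2, 56.8 and 62.5 CPM with miR-101, against 81.2, 76.5, 59.3 and 73.8 CPM in the control (log2 fold change -0.24 ± 0.115, edgeR adjusted p = 0.243). NCAPH was lower in all 4 pairs, yet control replicate 3 lay under 3 of the miR-101 libraries. SMC2, NCAPD2 and NCAPG had log2 fold changes of 0.13, -0.17 and -0.24.

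**Figure D4:**
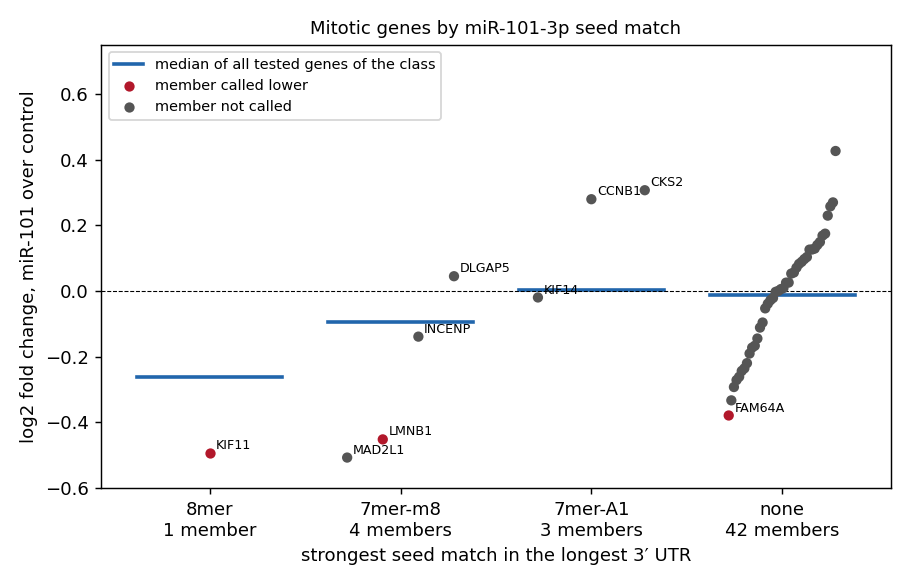
Log2 fold change of the 50 mitotic genes by the strongest miR-101-3p seed match in the longest 3′ UTR (8mer 1 gene, 7mer-m8 4, 7mer-A1 3, none 42), with called genes in red and the median of all tested genes of the class as a blue line. KIF11 (8mer), MAD2L1 and LMNB1 (7mer-m8) lie lowest, below the class medians of -0.26 and -0.096, while CCNB1 and CKS2 (7mer-A1) lie above 0.

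Set side by side by seed match, the 3 lowest log2 fold changes of the 50 genes belonged to genes with an 8mer or a 7mer-m8, MAD2L1 (-0.51), KIF11 (-0.49) and LMNB1 (-0.45). The other 2 genes with a 7mer-m8 were INCENP (-0.14) and DLGAP5 (0.045). The 42 mitotic genes with no match had a median of 0.0074, against -0.012 over the 9478 tested genes with none. With 5 genes in the stronger classes these values are a description.

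The promoter elements named above were searched as letters in the mitotic genes and, for comparison, in all tested genes. RefSeq promoter windows (GRCh38.p14, 250 bases before to 50 after a gene's start) were matched for 42 of the 50 genes. The motif TTTGAA, the core of the CHR, was found on either strand in 31 of the 42 (73.8%), against 1517 of the 10707 tested genes with a window (14.2%). CCAAT was found on either strand in 33 (78.6%), against 43.4%, and both in the same window in 24 (57.1%), against 5.81%. AURKA, TPX2, BIRC5, BUB3, TTK, UBE2C, RACGAP1 and FAM64A had no window. Stretches that hold both are printed for CDK1, PLK1 and ESPL1, which were not called, and for KIF11, which was. The motifs are in capitals, read as TTTGAA or TTCAAA and as CCAAT or ATTGG depending on the strand.
CDK1: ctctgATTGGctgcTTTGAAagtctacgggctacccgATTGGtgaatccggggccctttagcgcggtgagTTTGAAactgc
PLK1: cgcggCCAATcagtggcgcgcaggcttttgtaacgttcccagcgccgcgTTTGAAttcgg
ESPL1: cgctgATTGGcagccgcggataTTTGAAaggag
KIF11: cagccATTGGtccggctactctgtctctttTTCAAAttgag
They lie at chr10:60778395-60778475 (CDK1), chr16:23678811-23678870 (PLK1), chr12:53268246-53268278 (ESPL1) and chr10:92593072-92593112 (KIF11), all on the plus strand and ending 2, 18, 20 and 17 bases before the RefSeq start. Both motifs were found in KIF11 and in genes that were not called. The window of LMNB1 holds CCAAT and no TTTGAA. A match is a description of the letters and shows neither binding nor a cause.

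The summed level of the mitotic genes was 8966, 8913, 9685 and 10913 CPM with miR-101, against 8727, 8521, 9918 and 10485 CPM in the control, so that replicate 4 was the highest library of both groups and the groups overlapped. Replicate 4 was the highest of the 4 miR-101 libraries for 30 of the 50 genes, and the highest of the 4 control libraries for 32. The same shares over all tested genes were not taken. The summed level of all tested genes was also highest in miR-101 replicate 4 of its group (1084580 CPM, against 964504 to 986877). Among the controls it was lowest in replicate 4 (938890 CPM). Which mitotic genes stood out differed between the replicate 4 libraries. In miR-101 replicate 4 they were CDK1, ANLN, CENPA, KIF23 (102, 103, 109.5 and 156 CPM over the 4 miR-101 libraries) and CENPE (157, 152, 153 and 186 CPM). In control replicate 4 they were CDC20, KIF20A (35.2, 38.3, 34.4 and 64.2 CPM over the 4 control libraries) and ESPL1 (13.95, 15.7, 13.9 and 25.2 CPM). Without miR-101 replicate 4 the median log2 fold change of the 50 genes was -0.067, and without control replicate 4 it was 0.064, against 0.0030 with all 8 libraries. In replicates 1 and 2 alone, where 32.4% of all genes were called, 18 of the 50 were called, 9 higher and 9 lower. In replicates 3 and 4 alone none was called by edgeR, against 0.0379% of all genes. There 1 of the 50 had an unadjusted p under 0.05 by edgeR, and the share of all genes at that p was not taken. Each of these fits rests on 2 libraries a group.

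**Figure D5:**
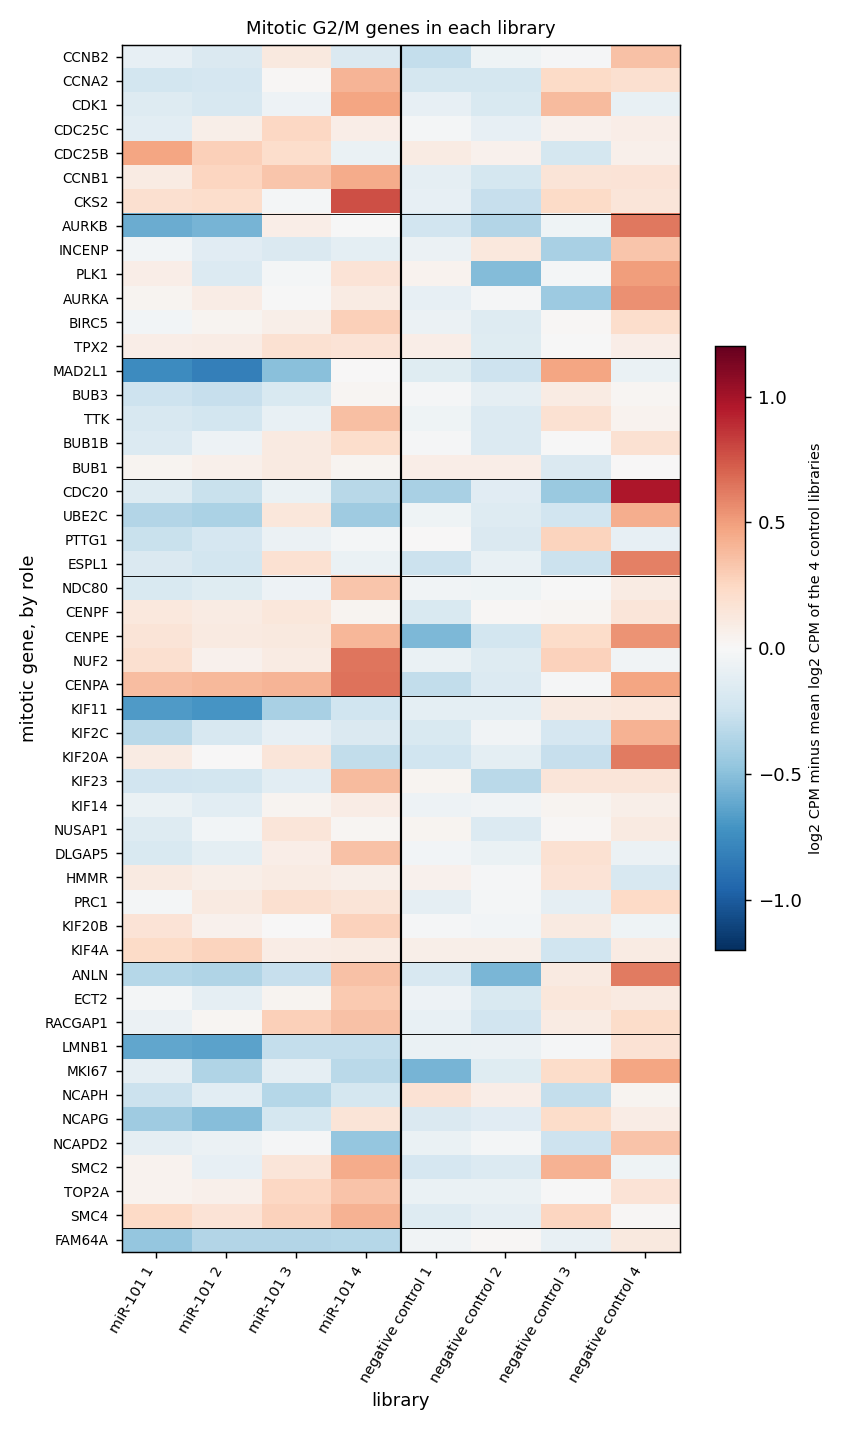
Log2 CPM of each mitotic gene in each library, minus the gene's mean log2 CPM over the 4 control libraries, in red where higher and blue where lower, with the 4 miR-101 libraries on the left of the line and the 4 control libraries on the right. KIF11, LMNB1 and FAM64A lie below 0 in all 4 miR-101 libraries. So do CDC20, MKI67, KIF2C, NCAPD2, NCAPH, INCENP and PTTG1, which were not called. Control replicate 4 is red for most genes, being the highest control library in 32 of 50.

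Other genes of mitosis, outside the 50, were taken from a list of 129 symbols, of which 118 were tested. Of these 1 was called higher and 2 lower (2.54%, against 6.62% of all genes). An unadjusted p under 0.05 was reached by 8 with a fold change above 0 and 11 below (16.1%, against 22.3% of all genes), and the median log2 fold change of the list was -0.044. DEPDC1, a cell cycle regulated protein with a DEP domain, stood at 248, 229, 203 and 264 CPM with miR-101, against 127, 125, 144 and 130.01 CPM in the control. It rose in a clear separation of the groups (log2 fold change 0.85 ± 0.107, edgeR adjusted p = 0.00183). NEK7, a NIMA-related kinase of spindle assembly that is also a part of the NLRP3 inflammasome, had 47.5, 46.2, 58.0 and 60.3 CPM with miR-101, against 106, 93.5, 158 and 90.9 CPM in the control, and fell (log2 fold change -1.08 ± 0.181, edgeR adjusted p = 0.00635). LMNA, the gene of the A-type lamins, stood at 96.3, 100.7, 85.4 and 84.7 CPM with miR-101, against 132, 139.7, 112 and 178 CPM in the control, and fell (log2 fold change -0.61 ± 0.14, edgeR adjusted p = 0.0266). LMNA lost its call when any miR-101 library, or replicate 1 or 2 of the control, was left out (edgeR adjusted p between 0.0539 and 0.0767), while DEPDC1 and NEK7 kept theirs whichever library was left out. With the replicate block 7 of the 118 were called, 2 higher and 5 lower, where 10.5% of all genes were called. FOXM1 and MYBL2, the genes of the activators FOXM1 and B-MYB, had log2 fold changes of -0.25 ± 0.207 and -0.41 ± 0.191 (edgeR adjusted p = 0.518 and 0.233).

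Of 34 genes of the G1/S step, 2 were called lower and none higher by edgeR (5.88%, against 6.62% of all genes). DESeq2, with 10.7% of all genes called, called 4 lower and none higher, and limma-voom, with 6.66%, 2 lower and none higher. At an unadjusted p under 0.05, 7 were lower and 0 higher by edgeR (20.6%, against 22.3% of all genes). The median log2 fold change was -0.13. E2F1, the transcription factor that opens S phase, had 41.9, 45.8, 49.4 and 49.4 CPM with miR-101, against 63.3, 63.5, 55.6 and 72.1 CPM in the control, and fell (log2 fold change -0.45 ± 0.109, edgeR adjusted p = 0.0338). CDKN1A, the inhibitor p21 that halts the cell cycle, was at 16.2, 19.0, 16.3 and 9.59 CPM with miR-101, against 37.8, 46.1, 24.1 and 25.6 CPM in the control, and fell (log2 fold change -1.13 ± 0.248, edgeR adjusted p = 0.0222). The groups did not overlap for either gene. E2F1 lost its call when replicate 1, 2 or 3 of miR-101, or replicate 1 or 2 of the control, was left out (edgeR adjusted p between 0.0637 and 0.117), and CDKN1A without replicate 1 or 3 of miR-101 or replicate 1 or 2 of the control (edgeR adjusted p between 0.0564 and 0.0663).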

How the data were processed

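Total RNA of 143BTK- cells was depleted of ribosomal RNA and sequenced, per the labels' protocols. The submitters' processing notes name the build hg38 and, as tools, StringTie 1.2.4, TopHat2 2.0.14 and bcl2fastq 2.18.0.12. The counting step, its annotation and its use of strand were not given in the sources used here. The authors deposited 1 table of whole-number counts per gene, with 4 miR-101 and 4 negative control libraries and totals of 17603054 to 20160267. Counts were filtered with filterByExpr (15905 of 15982 genes kept), scaled with TMM and tested with edgeR 4.0.16 in R 4.3.3 by the quasi-likelihood test on group alone. P-values were adjusted by Benjamini-Hochberg over all tested genes, and a gene was called at an adjusted p under 0.05. The members, the lists and the settings were chosen with earlier results of these data known. Values in every library are given for the called members, the 3 smallest p-values of each role, and CDK1, CCNB1, PLK1, MKI67 and TOP2A, with other members by fold change and libraries that stand apart named after their values were seen.

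The replicate numbers come from the titles. Deviations from the group means of same-numbered libraries correlated at 0.398, 0.561, 0.213 and 0.205 over 14398 genes for replicates 1 to 4, all above 0.1, so the numbers were taken as pairing the libraries. Of the miR-101 libraries, replicates 1 and 4 correlated more with a control library of another number (0.488 and 0.454). Of the control libraries, replicates 1 and 3 correlated more with a miR-101 library of another number (0.466 and 0.454). Only for replicate 2 was the same number the best match from both sides, so the pairing is uncertain. Over the 50 members alone the same-number correlations were -0.0054, 0.64, -0.29 and -0.31, so that 3 of the 4 pairs were not positive there. DESeq2 1.42.0, limma-voom (limma 3.58.1), other scalings, no filter, a replicate block, summed or split replicates and each library left out were tried. The fits were tested on simulated data with known fold changes. Seed matches were searched in the longest 3′ UTR of GENCODE 29 (14026 tested symbols matched by name and 257 by an older one) and promoter motifs in RefSeq windows, on both strands.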

Additional observations from a re-analysis of the deposited data

Results flagged for a closer look

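In 13 of 100 groups of 4 libraries, 1 library of a mitotic gene lay far from the other 3 by Dixon's test. For independent groups chance alone flags about 1 in 20, but these groups share the same 8 libraries and are not independent. The share of flagged groups over all tested genes was not taken, so the count cannot be read as a trait of the mitotic genes. In miR-101 replicate 4 the high values were CDK1 at 451 CPM (the others 283 to 311), ANLN at 734 CPM (449 to 475), KIF23 at 156 CPM (102 to 109.5), CENPE at 186 CPM (152 to 157) and CENPA at 54.4 CPM (45.0 to 46.0). UBE2C stood apart in miR-101 replicate 3 with 67.0 CPM (45.5 to 47.9), and FAM64A lay low in miR-101 replicate 1 with 29.8 CPM (32.2 to 32.5). In control replicate 3 CDK1 was high at 421 CPM (285 to 304), DLGAP5 was high at 220.5 CPM (183 to 189.6), and KIF4A was low at 85.7 CPM (106 to 108). Control replicate 4 held the high values of CDC20 at 138 CPM (51.9 to 64.2), KIF20A at 64.2 CPM (34.4 to 38.3) and ESPL1 at 25.2 CPM (13.9 to 15.7).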

How the results depend on the processing

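With the replicate number as a block, edgeR called 1676 genes (10.5% of all tested), against 1053 (6.62%) without it. Of the 118 other mitotic genes it called 7 with the block, against 3. The block called 4 of the 50 mitotic genes and changed the call of CENPA among them. DESeq2 called 1706 genes (10.7%), 7 other mitotic genes and 4 of the 34 G1/S genes, against 2 of the last by edgeR. Without composition factors edgeR called 1 G1/S gene, against 6.04% of all genes. With replicates 1 and 2 summed it called 173 genes (1.09%), 0 of the 50 mitotic genes, 1 other mitotic gene and 0 G1/S genes. In that fit 3 of the 50 had an unadjusted p under 0.05, and the share of all genes at that p was not taken. In replicates 1 and 2 alone edgeR called 5126 genes (32.4%), with 18 of the 50, 35 of the 118 and 16 of the 34. In replicates 3 and 4 alone it called 6 genes (0.0379%) and 0, 0 and 0 of these lists. There 1 of the 50 had an unadjusted p under 0.05, and the share of all genes at that p was not taken. KIF20A had a log2 fold change of -0.053 in all libraries and of 0.22 in replicates 1 and 2 alone, where it was called. The cause of these shifts was not tested. Leaving out 1 library gave 488 to 1419 genes called (3.06% to 8.91% of all tested). Among them were 0 to 3 of the 50, 2 to 7 other mitotic and 0 to 3 G1/S genes. The 7 came without control replicate 3, where 8.02% of all genes were called. The median log2 fold change of the 50 lay between -0.067 and 0.064 in these fits. Of the 50 genes, 20 changed the sign of their fold change in at least 1 of 17 settings. The 8 seed-matched genes were also 8 with any annotated 3′ UTR, and TTTGAA was found in 31 promoters over the whole window and 29 over the shorter one, TTTGAA or TTCGAA in 33 over the whole window, and CCAAT in 33 and 28. The counts of the 50 genes were 224 or more in each library, and no depth was varied.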
